A study of Mus musculus with 3 samples.

Results

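In neurospheres grown from the subventricular zone of mice, 1579 of 4009 H3K27me3 domains of 10 to 50 kb on the autosomes held an H3K4me3 region (39.4%, 95% Wilson interval 37.9 to 40.9%). These 1579 domains carry both the Polycomb mark and the promoter mark, and are described below by where the promoter mark sits in them. On the autosomes H3K27me3 formed 52317 domains of any length. The 1579 were chosen by the deposited regions themselves. H3K27me3 regions on the 19 autosomes were joined over gaps of up to 3 kb, domains spanning at least 10 kb and under 50 kb were kept, and a domain was a member when it shared at least 1 bp with an H3K4me3 region. Length and the presence of H3K4me3 are therefore part of the choice and are not findings. Among domains that held H3K4me3, the members nearest the lower limit spanned 10009 and 10038 bp, and the nearest domains left out spanned 9998 and 9999 bp. At the upper limit the nearest members spanned 49831 and 49954 bp, and the nearest left out 50054 and 50072 bp. The smallest shared lengths among members were 22, 44 and 59 bp, while the nearest domains without H3K4me3 lay 12, 20 and 20 bp from such a region.

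The cells were cultured as neurospheres, floating clusters that grow from neural stem cells, on low-attachment plates. They came from the subventricular zone, the niche along the lateral ventricles, of male wild-type C57BL/6 animals, and both antibodies were from Millipore. The age and number of the animals are not stated in the labels. The series has 3 samples, H3K4me3, H3K27me3 and input DNA, with 1 library each, and the input was not analysed here. With 1 library per mark no value has a replicate error and no difference was tested. Neighbouring regions share their library and surroundings, so the 95% intervals cover counting error only and are too narrow.

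Trimethylation of histone H3 at lysine 27 is written by Polycomb repressive complex 2 and is read by complexes that keep developmental genes silent. It can spread from a nucleation site, often a CpG island, over the surrounding chromatin. Trimethylation of lysine 4 marks promoters and is laid down by SET1 and MLL family enzymes, which are also drawn to CpG islands. Promoters with both marks are known as bivalent and were first described in embryonic stem cells, where they sit at many developmental regulators. In bulk chromatin the overlap of the marks may come from the same nucleosomes or from different alleles or cells, which cannot be told apart here. Positions are on mm9, and gene names and DNA sequence at these places were not used here.

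The lists held 21098 H3K4me3 and 115609 H3K27me3 regions on the autosomes. The deposited score of each region is the authors' own. Its scale is not stated, so it was used only within a list. Many scores pile up at 3100, and 3100 or more is named the top score here. It was reached by 53.0% of the autosomal H3K4me3 regions and by 2.57% of the autosomal H3K27me3 regions. The members took in 13544 H3K27me3 regions (11.7%) and 16.7% of all autosomal base pairs in such regions, and 2186 H3K4me3 regions (10.4%). The sequencing depth behind these lists is not known.

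Most members had a single H3K4me3 region. Exactly 1 was found in 1175 of 1579 members (74.4%, 95% interval 72.2 to 76.5%), 2 in 288 (18.2%), 3 in 84 (5.32%) and 4 or more in 32 (2.03%). The longer the member, the more often it held several. At least 2 were found in 14.9% of the 517 members of 10 to 15 kb, in 25.3% of the 312 of 15 to 20 kb, in 28.8% of the 406 of 20 to 30 kb and in 38.1% of the 344 of 30 to 50 kb. A longer domain has more room for a further region, and no share was set against that room. H3K4me3 covered a small part of a member, with a median of 9.55% of its length (interquartile range 5.75 to 15.5%) and 1879 bp.

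The H3K4me3 regions of members were narrower and less often top-scoring than the others on the autosomes. They were 1606 bp wide at the median, with quartiles at 1115 and 2289 bp, against 2063 bp, with quartiles at 1167 and 2904 bp, for the 18912 autosomal H3K4me3 regions that touched no member. The top score was reached by 29.4% (27.5 to 31.4%) of them and by 55.7% (55.0 to 56.4%) of those others. Set by the length of the H3K27me3 domain touched, the share at the top score was 21.8% of 615 H3K4me3 regions in domains of 50 kb or more, 29.4% of 2186 in members, 43.0% of 4463 in domains under 10 kb and 61.3% of 13841 that touched no domain. The median widths followed the same order, at 1460, 1606, 1723 and 2229 bp. Width and score moved together, since single regions at the top score had a median width of 2648 bp and single regions below it 1308 bp. Regions wider than 5 kb were rare in members, at 36 of 2186.

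In the 1175 members with a single region, midpoints of H3K4me3 were spread nearly evenly from end to centre, and fewer regions crossed an end than even placement gives. The middle 33.3% of the length of a domain is named its central part here, and the stretches to either side its outer parts. The midpoint of the region lay in the central part in 378 cases (32.2%, 95% interval 29.6 to 34.9%). It lay in an outer part with the whole region inside the domain in 613 cases (52.2%). In 185 cases (15.7%, 13.8 to 17.9%) the region crossed an end of the domain. The 1 region that crossed both ends had its midpoint in the central part and is counted in both of these groups. As a geometric yardstick, a region of the same width was placed evenly over all positions where it touches its domain, by arithmetic and with no test. That gives 30.1% of midpoints in the central part, which lies inside the interval, and 19.4% of regions across an end, above the interval. The median distance of the midpoint from the nearer end was 0.246 of the domain length (95% interval 0.232 to 0.260), where 0 is an end and 0.5 the centre. Midpoints spread evenly inside a domain have a median of 0.25. The yardstick above also puts some midpoints beyond an end, which count as 0, so its median is lower and was not computed. With merging gaps of 1 kb the spread was less even, with 37.1% in the central part, 11.6% across an end and a median distance of 0.280 (0.265 to 0.300). Ends at lower and at higher coordinates were crossed alike, in 87 and 97 cases. Between autosomes the central share averaged 32.5% ± 6.00 (SD, n = 19), with 21.3% on chromosome 17 and 44.7% on chromosome 12 as its extremes.

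High-scoring and lower-scoring H3K4me3 regions differed in place. Of the 388 single regions at the top score, 124 crossed an end (32.0%, 95% interval 27.5 to 36.8%), while 61 of the 787 below it did so (7.75%, 6.08 to 9.83%). The central part held 28.4% (24.1 to 33.0%) of the top-scoring midpoints and 34.1% (30.8 to 37.4%) of the others, with 28.4% and 30.9% from even placement. In the outermost 10% of the length on either side, counting midpoints beyond an end, lay 33.0% of the top-scoring and 18.3% of the other midpoints. Because midpoints beyond an end add to this zone, even placement gives it more than the other steps, and more for wider regions. Its share under even placement was not computed, so neither value can be set against it. Beyond that zone no 10% step held more than 17.5% of the top-scoring regions. The innermost step, next to the centre, held 16.5% of the top-scoring and 22.5% of the other regions. The difference in crossing, top score minus below, was positive on 18 of 19 autosomes, at 25.4 ± 11.5 percentage points (SD, n = 19). On chromosome 12 the difference was -0.71 points, from 10 top-scoring and 28 other regions. Autosomes held 6 to 42 top-scoring single regions each, so the spread between autosomes includes counting error.

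**Figure D1:**
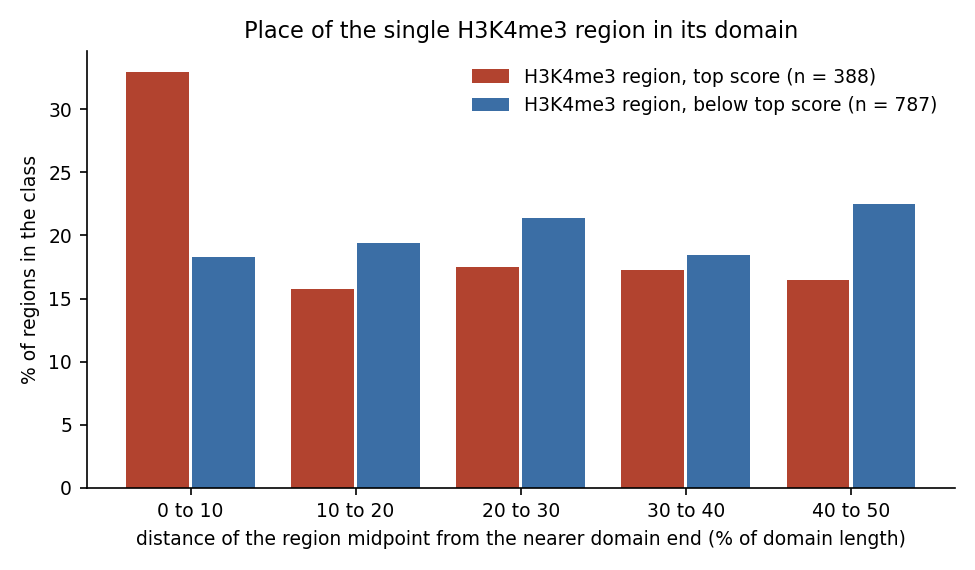
Share of single H3K4me3 regions (y axis, % of the class) by the distance of their midpoint from the nearer domain end (x axis, % of domain length, from the end at 0 to the centre at 50), for 388 regions at the top score and 787 below it. The top-scoring class has 33.0% in the outermost step, and the other class runs between 18.3% and 22.5% in every step. The outermost step also counts midpoints beyond an end, so even placement would not give equal steps, and its shares are not drawn.

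A wide region reaches over an end more easily, and top-scoring regions were wider. How much of the contrast goes with width was not tested. Even placement gives 29.3% of top-scoring regions and 14.4% of the others across an end. The top-scoring regions thus crossed at 1.09 times the yardstick, which lies inside their interval, and the others at 0.537 times it, so over all widths it was the lower-scoring class that departed from even placement. Among regions of similar width the contrast depended on the width. From 2 to 3 kb, 24.9% (19.5 to 31.2%) of 205 top-scoring regions crossed an end, and 6.90% (3.20 to 14.2%) of 87 others. From 1 to 2 kb the shares were 11.6% (5.07 to 24.5%) of 43 top-scoring and 8.75% (6.58 to 11.5%) of 503 other regions, and these intervals overlap. Of 140 top-scoring regions of 3 kb or more, 48.6% (40.4 to 56.8%) crossed an end, against a yardstick of 38.5%. Below the top score there was no steady change with score, with 5.73%, 10.3% and 7.22% crossing in the lowest, middle and highest of 3 equal groups by score. The merging gap of 3 kb bears on the widest regions, because an H3K4me3 region free of H3K27me3 over more than 3 kb splits a domain and comes to lie at an end. With gaps of 5 kb the shares across an end were 31.4% for top-scoring and 8.01% for other regions, and with gaps of 1 kb they were 29.0% and 4.85%. These shares are over all widths, so they cannot show how the gap bears on the widest regions.

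**Figure D2:**
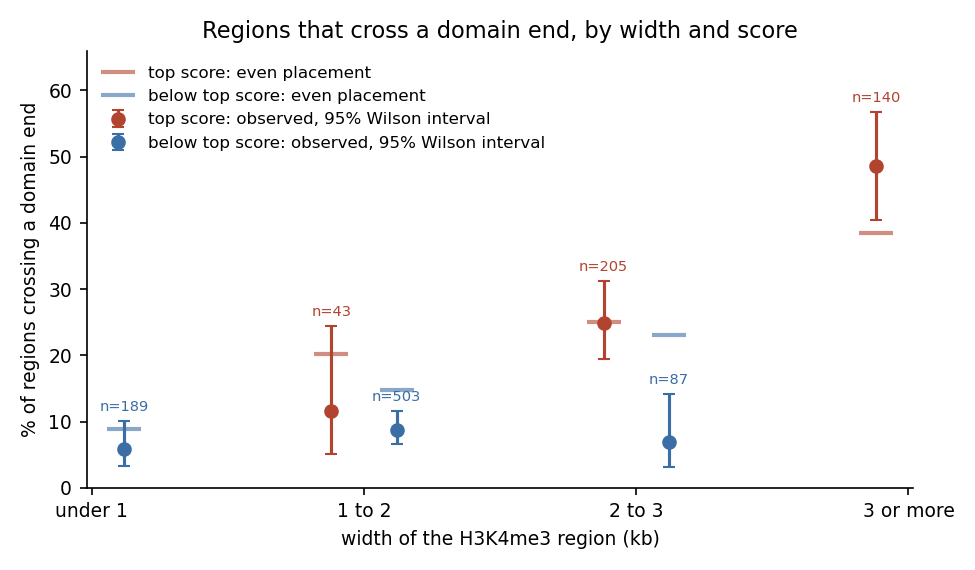
Share of single H3K4me3 regions that cross a domain end (y axis, %) by region width (x axis, kb) and score class. Points show the observed share with its 95% Wilson interval, flat marks the share from even placement, and classes under 10 regions are left out. At 2 to 3 kb the top-scoring share of 24.9% sits on its mark and the other share of 6.90% lies under its mark of 23.1%.

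Crossing was rarer in longer domains, as it is in the yardstick. The interval of the central share lay above its yardstick in the shortest class only. An end was crossed in 21.1% of the 440 single-region members of 10 to 15 kb, in 18.5% of 233 of 15 to 20 kb, in 12.1% of 289 of 20 to 30 kb and in 6.57% of 213 of 30 to 50 kb. The yardstick was 26.7%, 20.8%, 14.2% and 9.67% in these classes. The central share was 34.5% (30.3 to 39.1%) in the shortest class, above its yardstick of 28.9%. From 15 to 20 kb it was 31.3% (25.7 to 37.5%) with a yardstick of 29.9%. From 20 to 30 kb it was 31.8% (26.7 to 37.4%) with a yardstick of 31.0%. In the longest class it was 28.6% (23.0 to 35.1%), with 31.7% from even placement inside the interval.

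Regions that crossed an end were wider and reached well beyond the domain. The 184 regions that crossed exactly 1 end were 2472 bp wide at the median, and the 990 regions wholly inside 1566 bp. The top score was reached by 66.8% of the crossing regions and by 26.7% of those inside. The median part outside the domain was 938 bp (interquartile range 267 to 2162 bp), or 40.7% of the region, and in 80 of the 184 cases more than 50% of the region lay outside. The next H3K27me3 domain beyond the crossed end began at a median distance of 9948 bp (interval 8147 to 12686 bp), while beyond the opposite end of the same domains it began at 6545 bp (5726 to 7570 bp). Both distances exceed 3 kb by construction. The remaining region crossed both ends. It is 38993 bp wide and starts at position 2999824 of chromosome 9. It covers a domain that is 1 H3K27me3 region of 38890 bp (2999860 to 3038749), with both ends within 100 bp of each other. That H3K27me3 region is the widest in any member, where the 90th percentile of the widest region per member is 9229 bp. Whether repeated sequence plays a part at this place was not tested.

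Inside a domain, the arms on either side of the H3K4me3 region were unequal about as often as even placement gives. For the 990 regions wholly inside, the longer arm had a median of 12254 bp and the shorter arm 3932 bp. The longer was more than 2 times the shorter in 647 cases (65.4%) and more than 5 times in 306 (30.9%). Even placement inside a domain gives 66.7% and 33.3%. Within 1 kb of an end lay 107 of them (10.8%). Both arms reached 5 kb or more in 379 (38.3%).

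Symmetry was measured from the base pairs in H3K27me3 regions within 5 kb outside each end of the H3K4me3 region, as the difference of the sides over their sum. The measure is 0 when the sides are equal and 1 when all H3K27me3 lies on 1 side. Its median was 0.259 (95% interval 0.230 to 0.277) over 1174 single-region members, and the chromosome 9 case above, with none on either side, has no value. It depended on the merging gap, at 0.124 (0.113 to 0.144) with gaps of 1 kb. The heavier side held a median of 3568 bp and the lighter side 1898 bp of the 5000 bp. In 494 members (42.1%) the measure was 0.2 or less. In 126 (10.7%) all of the H3K27me3 lay on 1 side. The heavier side was the one at higher coordinates in 554 of 1174 (47.2%, 44.3 to 50.05%). The genome's direction is not that of a gene, and the strand of transcription was not used here.

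Symmetry went with position. Central regions had a median imbalance of 0.136 and were never one-sided in 377 cases, while regions within 20% of the length from an end had 0.567, and 126 of these 486 were one-sided. Part of this follows from the definition, because a domain stops at its end. Where both arms reached 5 kb, so that neither side was cut short by a domain end, the median was 0.118 (0.102 to 0.136) and 267 of 379 members (70.4%) stood at 0.2 or less. There the score class made little difference, with a median of 0.125 (0.097 to 0.177) for 89 top-scoring regions and 0.115 (0.096 to 0.134) for 290 others. Over all positions the medians were 0.370 and 0.216, and 0.188 and 0.111 with gaps of 1 kb. The same measure around the centre of 1988 domains without H3K4me3, with a blank of the median width of those 379 regions, had a median of 0.143 (0.135 to 0.153).

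Beside H3K4me3 regions inside a domain, H3K27me3 was denser in the first kb than farther out. On the shorter side this is set in large part by the merging rule, since the median shorter arm of 3932 bp ends before the fifth kb and more than 3 kb without H3K27me3 follows each domain end. Next to regions inside a domain and at the top score, 77.4% of base pairs in the first kb of the longer arm and 68.4% in that of the shorter arm lay in H3K27me3 regions. In the fifth kb these were 59.1% and 26.7%. For regions inside and below the top score the first kb held 77.5% and 73.1%, and the fifth 61.1% and 33.1%. Next to regions that crossed an end the side of the domain held 68.3% in the first kb and 56.6% in the fifth. The other side, outside the domain, held 2.24% and 14.7%. These low values and their rise are also set in large part by the merging rule, since more than 3 kb without H3K27me3 follows the crossed end. Across the H3K4me3 region itself the share in deposited H3K27me3 regions showed no dip. A dip in signal cannot be judged from this, because deposited regions carry no signal along their length. An H3K4me3 region free of H3K27me3 over more than 3 kb would also split the domain and be left out. In steps of 10% from end to end, the mean share in H3K27me3 ran from 81.2 to 84.9% for top-scoring regions inside a domain and from 80.4 to 84.7% for the others.

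**Figure D3:**
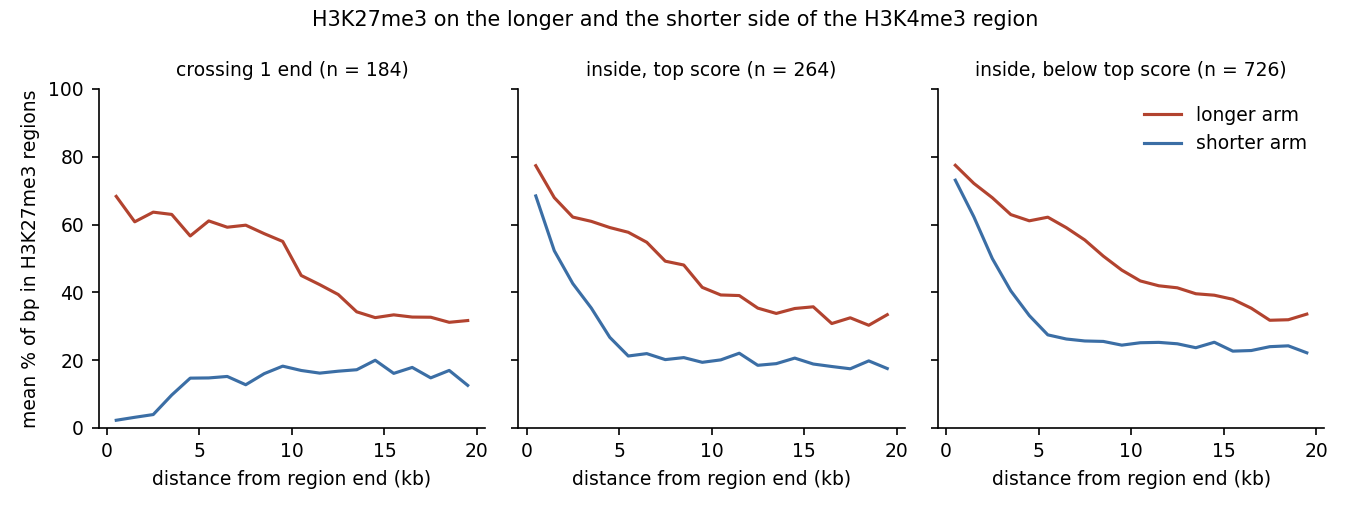
Mean share of base pairs in H3K27me3 regions (y axis, %) by distance from the end of the single H3K4me3 region (x axis, kb, steps of 1 kb to 20 kb), on the side of the longer and of the shorter domain arm. Regions are split into those crossing 1 end, those inside at the top score and those inside below it. The sides start close together for regions inside, at 77.4% and 68.4% or at 77.5% and 73.1%, and far apart for crossing regions, at 68.3% and 2.24%. Low values past a domain end are set in large part by the merging rule.

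H3K27me3 covered most of the H3K4me3 region in most members. The median covered share of a single region was 94.9%, and 482 of 1175 (41.0%) were covered whole. At the top score 81 of 388 single regions (20.9%, 17.1 to 25.2%) were covered whole, and below it 401 of 787 (51.0%, 47.5 to 54.4%). Among regions inside the domain the shares were 30.7% of 264 and 55.2% of 726. In 40 members (3.4%) the single region lay in a gap between H3K27me3 regions and touched none, and all 40 of these regions were below the top score. Gaps over 3 kb are not bridged by the rule, so a region wider than that without H3K27me3 could not appear here inside a domain. The rule does not bar narrower regions, and 140 of the 388 top-scoring single regions were 3 kb or wider.

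The H3K27me3 regions that touched H3K4me3 tended to be wider and higher-scoring than the others of the same domains. The 2420 touching regions were 2450 bp wide at the median, with quartiles at 1282 and 4408 bp, against 1050 bp, with quartiles at 781 and 1676 bp, for the 11124 of the same domains that did not touch. The top score was reached by 31.9% (30.1 to 33.8%) of the touching and by 2.54% (2.27 to 2.85%) of the other regions. Wider regions touch more easily, and scores rise with width, so classes of width were compared. From 2 to 5 kb the median score was 2085 for 918 touching regions and 784 for 1817 others. From 1 to 2 kb it was 330 and 231, and under 1 kb 90.8 and 86.4. From 5 kb up both medians stood at 3100, where scores pile up. The score gap was thus clear between 2 and 5 kb and nearly absent under 1 kb.

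In 916 of 1395 members with 2 or more H3K27me3 regions and a single one at the highest score (65.7%, 63.1 to 68.1%), that region touched H3K4me3. On average 20.3% of the H3K27me3 regions of these members touched H3K4me3, and they held 33.3% of the base pairs in H3K27me3 regions. The widest region touched it in 940 of 1574 (59.7%, 57.3 to 62.1%), where on average 20.9% of regions and 34.6% of base pairs touched. A wider region touches more easily by its width alone. Members with a tie at the highest score, 179 in all, are left out of the shares for that region. Its share was 70.6% in 506 members of 10 to 15 kb, where on average 26.3% of regions and 40.7% of base pairs touched. In 252 members of 30 to 50 kb the share was 60.3%, with 12.95% of regions and 23.8% of base pairs touching. Where the single H3K4me3 region was top-scoring, the share was 60.9% of 379 members, with 21.1% of regions and 32.4% of base pairs touching. Where it was not, the share was 62.5% of 718 members, with 15.2% of regions and 27.9% of base pairs touching.

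Domains without H3K4me3, of the same length range, less often held a top-scoring H3K27me3 region and were covered less densely. A top-score H3K27me3 region was present in 765 of 1579 members (48.4%, 46.0 to 50.9%) and in 254 of 2430 domains without H3K4me3 (10.5%, 9.30 to 11.7%). By length class from 10 to 15 kb up to 30 to 50 kb, members had such a region in 32.7%, 43.3%, 53.9% and 70.3% of cases, and the other domains in 3.46%, 8.83%, 14.4% and 32.6%. H3K27me3 regions covered a median of 69.9% of a member (interquartile range 60.6 to 78.9%) and 62.1% of a domain without H3K4me3 (52.8 to 72.0%), a difference of 7.72 percentage points. The size depended on the processing, at 3.17 points with gaps of 1 kb and 4.94 points with top-scoring H3K4me3 regions only. The difference was positive on all 19 autosomes, at 8.28 ± 2.63 points (SD, n = 19). Within each length class members were also higher, at 66.1% against 58.1% from 10 to 15 kb and 74.9% against 68.2% from 30 to 50 kb. Over all lengths the median number of H3K27me3 regions was 8 in members and 7 in domains without H3K4me3, but within each length class members had fewer on average. The means were 5.30 in members against 5.78 from 10 to 15 kb, 7.05 against 7.83 from 15 to 20 kb, 9.56 against 10.5 from 20 to 30 kb and 13.7 against 15.1 from 30 to 50 kb. Members were 3351 bp longer at the median (19068 bp against 15717 bp), and length also sets the room for an overlap.

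Away from H3K4me3, the H3K27me3 regions of members had a median width and score close to those of domains without H3K4me3, and a larger share at the top score. Those that did not touch H3K4me3 were 1050 bp wide at the median with a median score of 164, close to the 1049 bp and 158 of the 20241 H3K27me3 regions in domains without H3K4me3. Their share at the top score was 2.54% (2.27 to 2.85%), against 1.60% (1.44 to 1.78%) in domains without H3K4me3. Members were longer, and these shares were not split by domain length. A top-score region that touched H3K4me3 was present in 669 members (42.4%), and one that did not touch it in 220 (13.9%, 12.3 to 15.7%). Along the domain, members with a central H3K4me3 region had 79.4% of base pairs in H3K27me3 regions from 40 to 50% of their length and 55.9% from 10 to 20%. Domains without H3K4me3 had 61.4% and 54.9% there. Members with H3K4me3 within 20% of an end had 82.6% in the 10% of length at that end, 71.3% in the next 10% and 74.6% in the 10% at the other end, while domains without H3K4me3 had 75.6% and 75.5% at their ends. The ends are high in every domain by construction, because a domain starts and ends with an H3K27me3 region.

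**Figure D4:**
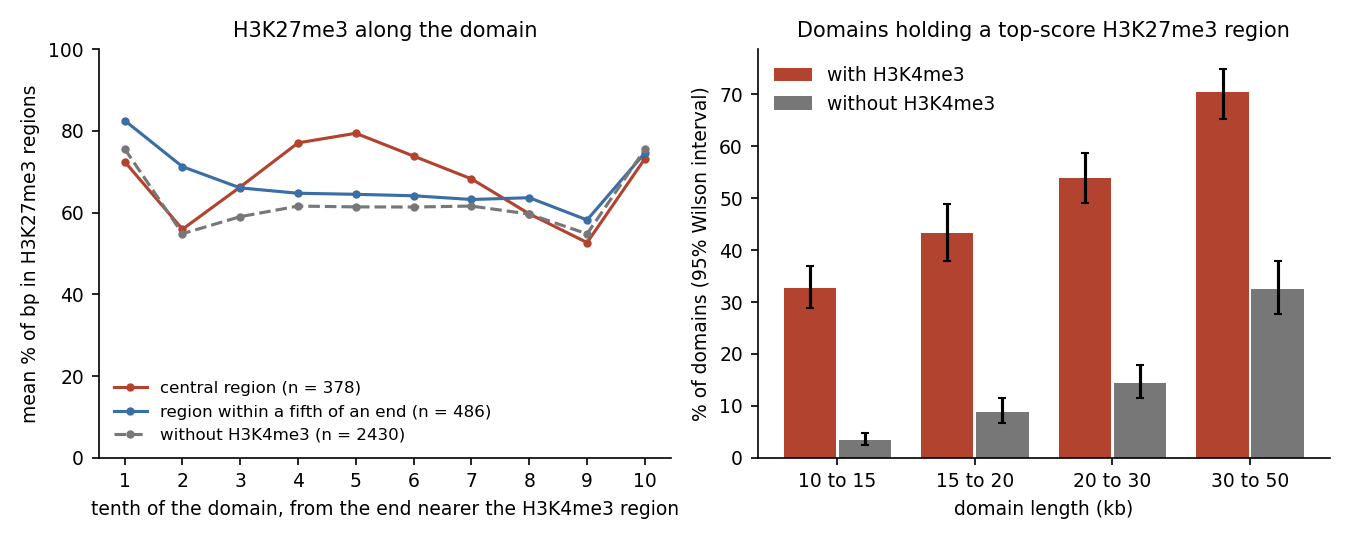
Left, mean share of base pairs in H3K27me3 regions (y axis, %) in steps of 10% of the domain length (x axis), counted from the end nearer the H3K4me3 region, for members with a central region, members with a region within 20% of an end, and domains without H3K4me3, which are counted from their lower coordinate. Right, share of domains that hold a top-score H3K27me3 region (y axis, %, with 95% Wilson intervals) by length (x axis, kb), from 32.7% with and 3.46% without H3K4me3 in the shortest class to 70.3% and 32.6% in the longest.

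The 404 members with several H3K4me3 regions were longer, with a median of 23715 bp against 17833 bp for members with 1. Their 1011 H3K4me3 regions were 1557 bp wide at the median, and 25.2% were at the top score. The smallest gap between neighbouring H3K4me3 regions had a median of 4084 bp and was 2 kb or less in 131 members (32.4%). From the first to the last, the H3K4me3 regions spanned a median of 52.2% of the domain (interquartile range 32.5 to 73.2%). At least 1 lay in the central part in 258 members (63.9%). An end was crossed in 108 (26.7%), and both ends in 8. Of the 288 members with exactly 2, 76 (26.4%) had 1 in each outer part.

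Individual domains show these forms. The longest member spanned 49954 bp on chromosome 5 (120098879 to 120148832). Its single H3K4me3 region of 3264 bp lay 44.8% of the length from the nearer end, was wholly covered by H3K27me3, and had 5000 bp and 3947 bp of H3K27me3 within 5 kb on its sides. A member of 49457 bp on chromosome 8 (91003406 to 91052862) had its single top-scoring region of 3514 bp near an end, with arms of 41061 and 4882 bp. The other members among the 5 longest lay on chromosome 2 (152726905 to 152776735), chromosome 9 (121538376 to 121587920) and chromosome 15 (75532665 to 75581983), and held 3, 2 and 3 H3K4me3 regions.

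After the domain at the start of chromosome 9, the most centred top-scoring region lay on chromosome 4 in a domain of 30800 bp (133912772 to 133943571), with arms of 14150 and 14215 bp. Equal arms did not mean equal H3K27me3, since within 5 kb its sides held 4272 and 2618 bp, an imbalance of 0.240. The next, on chromosome 15 (78802679 to 78825145), had arms of 9803 and 9973 bp and sides of 3606 and 4383 bp. The remaining 2 lay on chromosome 9 (50501407 to 50511668) and chromosome 7 (38547770 to 38564249), with imbalances of 0.313 and 0.315. At the opposite extreme, a domain of 39738 bp on chromosome 7 (75056649 to 75096386) ended in a top-scoring region of 5529 bp, of which 4260 bp lay outside. It had 3137 bp of H3K27me3 within 5 kb on the domain side and none on the other. Domains of 38463 bp on chromosome 4 (137886040 to 137924502) and 36609 bp on chromosome 5 (38549739 to 38586347) were also one-sided, with 10 bp and 1224 bp of their H3K4me3 region outside.

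The members with the most H3K4me3 regions held 9 to 15. On chromosome 8 a domain of 48391 bp (19693914 to 19742304) had 15, none of them at the top score. On chromosome 6, domains of 41592 bp (47686944 to 47728535) and 40722 bp (47596457 to 47637178) had 15 and 11, of which 8 and 9 were at the top score, and H3K27me3 covered 96.5% and 99.7% of these domains. On chromosome 4 a domain of 35804 bp (88417307 to 88453110) had 12, all at the top score and all 1684 to 2038 bp wide. On chromosome 7 a domain of 28497 bp (38957840 to 38986336) had 9, of which 3 started and ended within 100 bp of where an H3K27me3 region did. Over all members, 40 of 2186 H3K4me3 regions (1.83%) had such matching ends. Whether repeated sequence plays a part here was not tested.

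**Figure D5:**
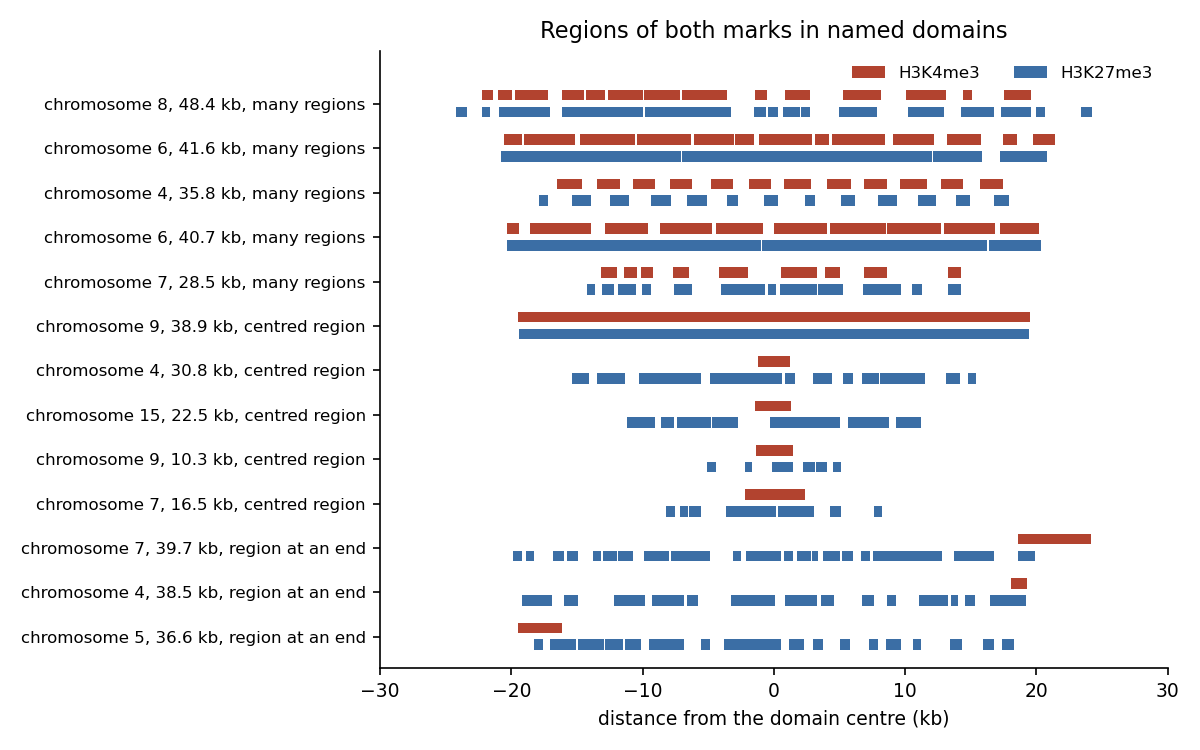
Deposited H3K4me3 (upper bars) and H3K27me3 regions (lower bars) of 13 members, placed by distance from the domain centre (x axis, kb), with 1 member per line named by chromosome and length. The 5 members with most H3K4me3 regions come first, then the 5 with the most centred top-scoring region and the 3 with the most one-sided H3K27me3, where the H3K4me3 region sits at an end.

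Members were found on every autosome. Their share of domains of 10 to 50 kb averaged 40.2% ± 4.85 (SD, n = 19), from 29.9% on chromosome 12 to 50% on chromosome 3. Chromosome 11 held the most members, 157, next to 262 domains without H3K4me3.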

How the data were processed

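Chromatin from neurospheres was immunoprecipitated for H3K4me3 and for H3K27me3, with 1 library each, and sequenced. Each deposited list gives a start, an end and a score per region. The score is as deposited by the authors, who state no scale for it. Region names in the deposited files are of the form MACS writes. Per the submitters' processing notes, reads were handled with Bowtie 1.1.2 on the build mm9. Not given in the sources used here are the version and threshold of MACS and the control it had.

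H3K27me3 regions on the 19 autosomes were merged over gaps of up to 3000 bp, and domains from 10000 bp to under 50000 bp were split by an overlap of at least 1 bp with H3K4me3. Shares carry 95% Wilson intervals and medians 95% order-statistic intervals. Positions are counted from 1. The code returned the positions and overlaps built into simulated lists. The tools were pandas 2.3.3, NumPy 2.4.6 and SciPy 1.17.1 under Python 3.11.15, with figures by matplotlib 3.10.9.

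The members and measures were chosen with earlier results of these data known. Named domains, outside chromosome 18, are the 5 with most H3K4me3 regions, the 5 longest, the 5 with the most centred single top-scoring region and the 3 most one-sided ones at an end, ties by length. The alternatives tried were merging gaps of 1000 and 5000 bp, an overlap of 200 bp, H3K4me3 regions at the top score only, H3K27me3 regions scoring 100 or more, H3K4me3 regions merged over 1000 bp, and flanks of 10 kb. The split by score class under these settings was added after the data were seen.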

Additional observations from a re-analysis of the deposited data

How the results depend on the processing

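Of 55 values under alternatives, 31 stayed within the interval of the value reported and 24 moved, and no difference changed sign. Requiring 200 bp of overlap moved none. With merging gaps of 1 kb the central share was 37.1%, the crossing share 11.6%, the relative distance from the nearer end 0.280, the imbalance 0.124, the share of highest-scoring H3K27me3 regions touching H3K4me3 76.0% and the coverage difference 3.17 points. With gaps of 5 kb the imbalance was 0.306, that touching share 61.6%, the coverage difference 10.4 points and the length difference 4346 bp. With top-scoring H3K4me3 regions only, members were 14.6% of domains, 94.5% of them had a single region, the central share was 26.6%, the crossing share 31.5%, the relative distance 0.197, the imbalance 0.371, the touching share 57.5%, the coverage difference 4.94 points and the length difference 2281 bp. Fewer regions then count, by construction. With H3K27me3 regions scoring 100 or more, 71.2% of members had a single region, the touching share was 68.9% and the coverage difference 6.33 points. Merging H3K4me3 regions over 1 kb gave 77.1% with a single region, and flanks of 10 kb an imbalance of 0.293. The cause of these moves was not tested otherwise. The gap in crossing between score classes, 24.2 points as reported, was 23.2 to 24.3 points in the 5 settings where it was computed, one of which leaves out regions whose ends match those of H3K27me3.

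No paired analysis was possible because there is 1 library for each of these marks. Depth is not known, so the absence of a region cannot be set against a detection limit, and region ends, on which every position here rests, depend on how the authors' caller closed gaps.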

Other observations

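The chromosome 4 domain with 12 H3K4me3 regions had a regular build. The start of each region lay 2691 to 3265 bp from that of the next, with a median of 2916 bp. The starts of the 12 regions alternated with those of 13 H3K27me3 regions of at most 1551 bp, and each of the 12 overlapped H3K27me3 in part. In the other 4 members with most H3K4me3 regions the same spacing was wider spread. It ran from 1197 to 4824 bp on chromosome 8, from 748 to 4345 bp and from 945 to 5735 bp on chromosome 6, and from 1297 to 6399 bp on chromosome 7. The regularity was noticed after the data were seen, and sequence copies were not tested.

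Members lay a little farther from further H3K27me3 and nearer to further H3K4me3 than domains of the same length range without H3K4me3. The next H3K27me3 domain on either side began at a median of 6676 bp from members and 5558 bp from the others, and 56.7% of members and 67.0% of the others had one within 5 kb. The nearest H3K4me3 region outside the domain lay at a median of 19243 bp from members and 28990 bp from the others, and within 10 kb in 31.8% and 22.2% of cases. These differences were not tested.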
